A study of Mus musculus with 14 samples.

Results

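The mechanical stress genes described here are 7 genes of skeletal muscle that are known to respond to stretch, load or damage of the fibre. They are the muscle ankyrin repeat genes Ankrd1, Ankrd2 and Ankrd23, the Xin genes Xirp1 and Xirp2, the LIM protein gene Csrp3 and the receptor gene Tnfrsf12a. They were chosen by symbol, from their known roles and with earlier results of these data known, out of the 24359 genes used in each library. All 7 were listed in every library. Poly(A) RNA of the tibialis anterior, a fast muscle of the shin that lifts the foot, was sequenced in C57Bl/6 mice. Muscles labelled follistatin were set against muscles labelled control, both of the same strain and tissue. At day 3 there were 3 control and 4 follistatin libraries. Day 7 held 2 control and 2 follistatin libraries, and day 14 held 1 control and 2 follistatin libraries. Days 7 and 14 were joined, as in the series' own design, into a late set of 3 control and 4 follistatin libraries. The sample labels do not give the animals' age, how follistatin was supplied or what the controls received. The authors' own comparisons name the controls MCS and the follistatin muscles FST. Whether replicates were separate animals is not given either, so the p-values measure the spread between these libraries only. Follistatin binds and blocks myostatin and activins, secreted brakes on muscle growth.

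The muscle ankyrin repeat proteins bind the elastic I-band part of titin, the giant spring of the sarcomere, and can also enter the nucleus. Ankrd1 (CARP) is best known from the heart and from stretched or injured muscle, Ankrd2 (Arpp) from slow and stretched muscle, and Ankrd23 (DARP) is the family member that is abundant in fast muscle. Xin proteins bind actin filaments, filamin C and other proteins of the myotendinous junction, the intercalated disc and sites of fibre damage. Csrp3 (muscle LIM protein) sits at the Z-disc and on actin filaments. Tnfrsf12a (Fn14) is the receptor of the cytokine TWEAK, made from Tnfsf12, and signals to NF-kB.

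On the mouse build mm10 (GRCm38, gene models of GENCODE M21), Ankrd1 (ENSMUSG00000024803.9) spans chr19:36111961-36120099 on the minus strand and Ankrd2 (ENSMUSG00000025172.3) spans chr19:42036000-42045110 on the plus strand. Ankrd23 (ENSMUSG00000067653.12) spans chr1:36530188-36536883 on the minus strand, and 2109 of its 2697 exon bases (78.2%) also belong to the gene model Gm42417 on the same strand, which is not listed in the files used here. Reads of these bases cannot be assigned to one model or the other, so the level of Ankrd23 may include such transcripts. Xirp1 (ENSMUSG00000079243.3) spans chr9:120013755-120023598 on the minus strand. Xirp2 (ENSMUSG00000027022.13) spans chr2:67446002-67526614 on the plus strand, with 168 of its 11979 exon bases shared with the opposite-strand model Gm13601. Csrp3 (ENSMUSG00000030470.15) spans chr7:48830398-48848033 and Tnfrsf12a (ENSMUSG00000023905.15) spans chr17:23675445-23677468, both on the minus strand. No run of 50 bases in the transcripts of one member occurred in those of another, so reads of that length do not mix the ankyrin or the Xin genes with each other.

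RefSeq start sites on GRCm38.p6 were found for 6 of the 7 members (not Xirp1), and the 250 bases before each start were searched on both strands. The motifs were the M-CAT element CATTCC bound by TEAD factors, the AP-1 element TGANTCA, the CArG box of serum response factor and the MEF2 site (all capitalised where they match), and the short E-box CANNTG and Smad element CAGAC (left in lower case). The windows of the 3 ankyrin repeat genes are shown because the differences of these relatives had opposite signs. Those of Xirp2 and Tnfrsf12a are shown because they stood on opposite sides of the late comparison. Each line gives the gene and its sequence, 5′ to 3′ on the gene's strand.
Ankrd1: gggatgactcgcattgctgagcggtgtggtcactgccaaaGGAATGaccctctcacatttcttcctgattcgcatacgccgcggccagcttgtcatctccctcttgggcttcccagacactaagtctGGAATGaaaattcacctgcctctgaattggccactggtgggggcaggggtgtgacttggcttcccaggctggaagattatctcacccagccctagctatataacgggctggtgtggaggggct
Ankrd2: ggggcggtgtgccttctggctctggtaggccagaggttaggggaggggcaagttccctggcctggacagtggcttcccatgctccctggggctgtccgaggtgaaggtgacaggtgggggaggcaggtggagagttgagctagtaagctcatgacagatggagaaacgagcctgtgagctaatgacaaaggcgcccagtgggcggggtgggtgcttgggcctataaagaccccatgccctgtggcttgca
Ankrd23 start 1: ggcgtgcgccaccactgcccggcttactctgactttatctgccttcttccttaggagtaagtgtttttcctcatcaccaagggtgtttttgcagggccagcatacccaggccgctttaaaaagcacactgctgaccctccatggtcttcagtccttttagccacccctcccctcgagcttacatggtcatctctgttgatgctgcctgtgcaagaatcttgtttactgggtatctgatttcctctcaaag
Ankrd23 start 2: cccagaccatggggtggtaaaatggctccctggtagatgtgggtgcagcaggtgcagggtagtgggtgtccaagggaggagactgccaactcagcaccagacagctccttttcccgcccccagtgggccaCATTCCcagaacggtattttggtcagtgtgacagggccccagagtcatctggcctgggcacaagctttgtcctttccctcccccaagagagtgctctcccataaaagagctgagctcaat
Xirp2: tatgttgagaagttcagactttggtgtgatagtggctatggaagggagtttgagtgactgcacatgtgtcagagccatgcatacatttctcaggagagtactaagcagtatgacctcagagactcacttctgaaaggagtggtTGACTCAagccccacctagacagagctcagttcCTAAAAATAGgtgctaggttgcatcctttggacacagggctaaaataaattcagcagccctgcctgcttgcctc
Tnfrsf12a: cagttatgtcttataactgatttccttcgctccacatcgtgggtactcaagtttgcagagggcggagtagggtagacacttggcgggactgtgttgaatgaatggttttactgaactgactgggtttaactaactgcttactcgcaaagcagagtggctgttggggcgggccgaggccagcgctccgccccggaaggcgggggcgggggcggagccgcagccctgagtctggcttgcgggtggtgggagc

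These windows lie at chr19:36119845-36120094 (Ankrd1, minus strand), chr19:42035777-42036026 (Ankrd2, plus), chr1:36536557-36536806 and chr1:36535740-36535989 (Ankrd23, starts 1 and 2, minus), chr2:67445752-67446001 (Xirp2, plus) and chr17:23677450-23677699 (Tnfrsf12a, minus). Ankrd1 held 2 M-CAT matches, at -210 to -205 and at -123 to -118 from the start, the latter sharing 1 base with a Smad element. The second start of Ankrd23 held 1 M-CAT match, at -120 to -115, and its first start held none of the 6 motifs. Ankrd2 held 3 E-boxes and no other motif. Xirp2 held 1 AP-1 match at -107 to -101 and 1 MEF2 match at -74 to -65. None of the capitalised motifs occurred before Tnfrsf12a or before either start of Csrp3. Of all 32851 windows of this length, 12.6% held an M-CAT match, 6.75% an AP-1 match, 2.92% a MEF2 match, 1.47% a CArG box, 66.2% an E-box and 42.2% a Smad element. A match describes letters only and is not a measured site.

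Levels are the authors' FPKM (fragments mapped to a gene, divided by transcript length and by the library's mapped fragments), and a group is given by its mean ± SD. Summed over genes, FPKM reached 364513 to 532859 per library, with the 4 late follistatin libraries between 364513 and 433552 and the late controls between 485755 and 510584. Read counts were not used here. Steps between low values put the depth of the day 3 libraries at 0.683 to 1.27 times that of control day 3 replicate 1, and gave no dependable depth for the late libraries. Genes with any signal numbered 16158 in control day 7 replicate 1 and 19383 to 20283 in each of the other late libraries. Fst, the gene of follistatin, lay at 1.18 ± 0.212 FPKM in the day 3 controls (n = 3) and 57.6 ± 8.16 FPKM in the day 3 follistatin libraries (n = 4), and at 387 ± 28.7 and 1368 ± 75.3 FPKM in those of day 7 and day 14 (n = 2 each). Muscle fibre genes were among the most abundant, such as Tnnt3 at 17377 to 19818 FPKM over the day 3 libraries. All 12 listed fibre genes carried the authors' mark for genes not estimated in the late comparison, and they were not tested there. Several of them stood at 0 in all late follistatin libraries but not in the late controls, such as Tnnc2 (16986 to 20606 FPKM in controls) and Mylpf (14942 to 16277 FPKM). These zeros lower the summed FPKM of the late follistatin libraries, so the late sums above do not compare the treatments over the same genes.

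Averaged over the 14 libraries, Ankrd23 was the most abundant of the 7 members, at 907.5 FPKM (rank 57 of 24359 genes). Xirp2 came next at 323 FPKM (rank 197), followed by Ankrd2 at 51.0 FPKM, Xirp1 at 30.5 FPKM, Ankrd1 at 24.1 FPKM, Csrp3 at 22.9 FPKM and Tnfrsf12a at 16.9 FPKM (rank 3186). The lowest Ankrd23 library (630.1 FPKM) lay above the highest Xirp2 library (466.5 FPKM), and the lowest Xirp2 library (153 FPKM) lay above the highest Ankrd2 library (111 FPKM). The ranges of the other 5 members over the libraries overlapped, so their order is not fixed by these data. Csrp3 varied most, 9.78-fold between its highest and lowest library, and Ankrd23 least, 2.11-fold.

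**Figure D1:**
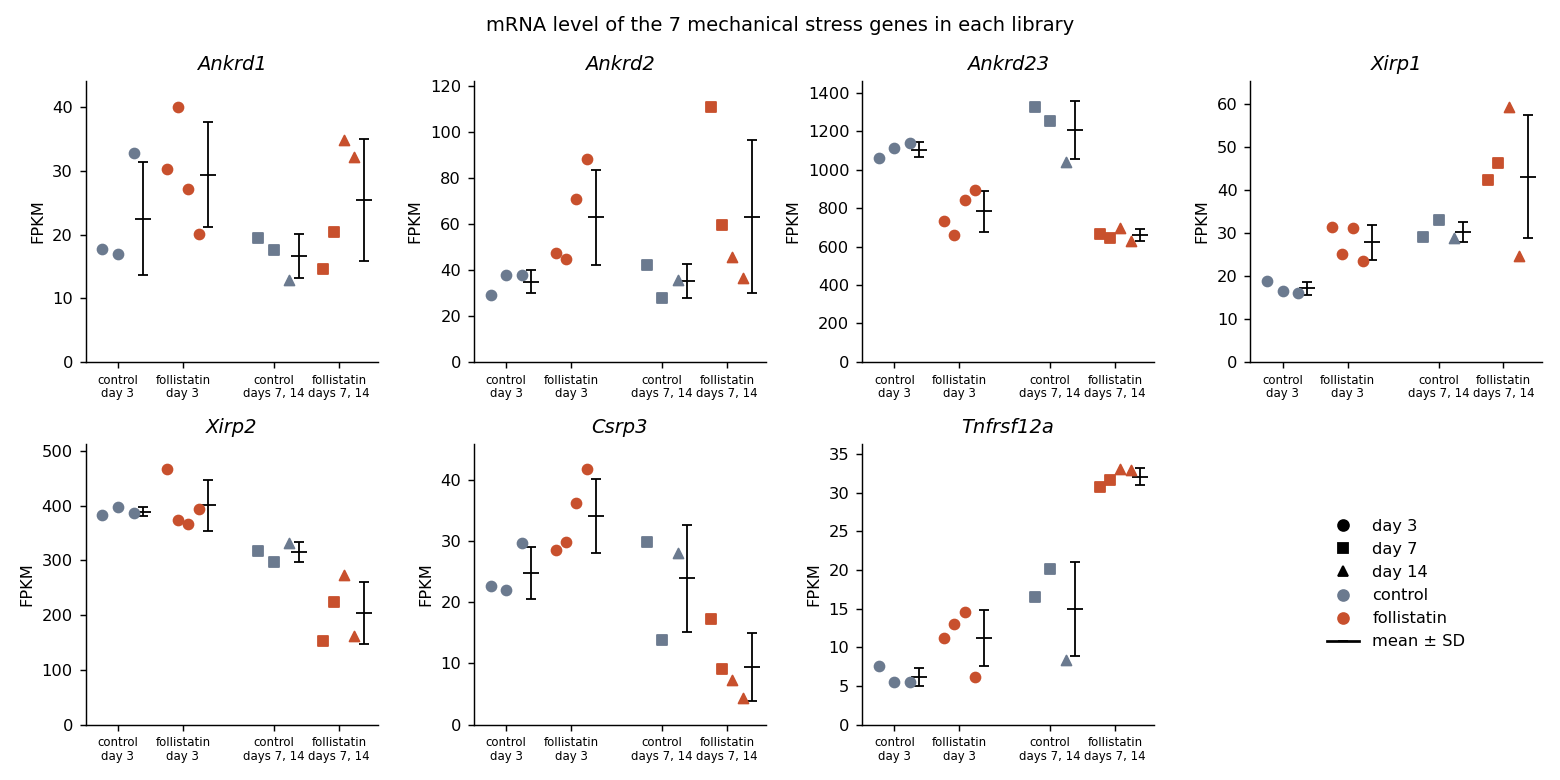
FPKM of each of the 7 members in each of the 14 libraries (linear vertical axes from 0, 1 panel a gene, 1 point a library, point shape by day, black bar the group mean ± SD). Ankrd23 lies lower in every follistatin library than in every control of its set, whereas Tnfrsf12a at days 7 and 14 lies at 30.7 FPKM or more in the follistatin libraries and at 20.2 FPKM or less in the controls.

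The members that passed the test did not all change in the same direction. At day 3, Xirp1 rose (1.63-fold by the means) and no other member passed the test. At days 7 and 14, Tnfrsf12a rose (2.14-fold) and Ankrd23 fell (to 0.547 of the control mean), and the other 5 did not pass. Calls were made with limma at a Benjamini-Hochberg adjusted p under 0.05 over all genes tested. At day 3 the 1 call of 7 members stood against 1.49% of all 11268 genes tested, and 5 members had an unadjusted p under 0.05 against 15.2% of all genes. In the late set the 2 calls stood against 5.5% of 11047 genes, and 4 members had an unadjusted p under 0.05 against 28.3%. Since the members were chosen with earlier results of these data known, these shares do not test the members as a set. The median log2 difference over the 7 members was 0.44 at day 3 and 0.44 in the late set, while the medians over all genes tested were 0.01 and -0.09. Of the 608 late calls over all genes, 40.6% were higher, and this share was 62.0% after rescaling by the median ratio and 55.8% after quantile normalization. In these bulk samples, fewer cells of a type and less RNA per cell cannot be told apart.

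Ankrd23, the abundant fast-muscle ankyrin repeat gene, lay at 1063, 1110 and 1140 FPKM in the day 3 controls and at 735, 660.3, 842 and 896 FPKM in the day 3 follistatin libraries. All 4 follistatin libraries were below all controls, as were those of 6.8% of the genes tested, but the difference did not pass (log2 -0.50, SE 0.10, adjusted p = 0.0629 by limma). Late controls held 1328 and 1251 (day 7) and 1041 FPKM (day 14), and late follistatin libraries 666 and 644 (day 7) and 699 and 630.1 FPKM (day 14). Ankrd23 fell from 1207 ± 149 FPKM (n = 3) to 659.6 ± 29.9 FPKM (n = 4), a log2 difference of -0.86 (SE 0.11, adjusted p = 0.0106 by limma), with no overlap. The late call ended without control day 7 replicate 1 (adjusted p = 0.087), without control day 7 replicate 2 (adjusted p = 0.0529) and with the day 7 libraries alone (adjusted p = 0.116), while the log2 difference stayed between -0.98 and -0.75. The day 3 difference passed under 6 of 16 alternatives, among them leaving out follistatin day 3 replicate 4 (adjusted p = 0.0392).

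Ankrd2, the ankyrin repeat gene of slow and stretched muscle, had the higher mean in the follistatin libraries of both sets. Its day 3 controls held 29.2, 37.6 and 37.8 FPKM and its day 3 follistatin libraries 47.3, 44.8, 71.0 and 88.0 FPKM. Every follistatin library was above every control, as for 8.31% of genes, yet the difference did not pass (34.9 ± 4.93 to 62.8 ± 20.6 FPKM, log2 0.78, SE 0.23, adjusted p = 0.165 by limma). Late controls lay at 42.1 and 27.6 (day 7) and 35.5 FPKM (day 14), and late follistatin libraries at 111 and 59.4 (day 7) and 45.7 and 36.4 FPKM (day 14). The high values were those of day 7, the day 14 values reached into the control range, and the difference did not pass (log2 0.72, SE 0.35, adjusted p = 0.218). Without follistatin day 7 replicate 1 it was 0.41.

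Ankrd1, the ankyrin repeat gene known from heart and injured muscle, did not pass in either set. It lay at 17.8, 17.0 and 32.8 FPKM in the day 3 controls and at 30.3, 40.1, 27.2 and 20.1 FPKM in the day 3 follistatin libraries, with overlap (log2 0.39, SE 0.27, adjusted p = 0.551 by limma). That value was 0.69 without control day 3 replicate 3, the highest control, and 0.23 without control day 3 replicate 2. Late controls held 19.4 and 17.6 (day 7) and 12.8 FPKM (day 14), and late follistatin libraries 14.7 and 20.4 (day 7) and 34.9 and 32.1 FPKM (day 14). Both day 14 follistatin libraries stood above all other late libraries, and both day 7 ones lay among the controls. The late difference was 0.53 (SE 0.30, adjusted p = 0.275), and with the day 7 libraries alone it was -0.09.

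Xirp1, the gene of Xin itself, held 18.8, 16.6 and 16.0 FPKM in the day 3 controls and 31.5, 25.2, 31.3 and 23.5 FPKM in the day 3 follistatin libraries. It rose from 17.1 ± 1.44 FPKM (n = 3) to 27.9 ± 4.13 FPKM (n = 4) without overlap (log2 0.66, SE 0.12, adjusted p = 0.0373 by limma). The call ended when any 1 library other than follistatin day 3 replicate 4 was left out (adjusted p from 0.0677 to 0.143), and also without the filter on low values (0.0676), after quantile normalization (0.0554) and in 1 fit over all 14 libraries (0.217). The log2 difference stayed between 0.60 and 0.74. The late controls, at 29.0 and 32.9 (day 7) and 28.8 FPKM (day 14), were all above the day 3 controls. The late follistatin libraries held 42.5 and 46.2 (day 7) and 59.5 and 24.6 FPKM (day 14). Follistatin day 14 replicate 2 was thus the lowest late library and the other 3 follistatin libraries the highest, and the difference did not pass (log2 0.44, SE 0.26, adjusted p = 0.303). Without that library it was 0.68 (adjusted p = 0.0534), and without follistatin day 14 replicate 1 it was 0.26 (adjusted p = 0.48).

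Xirp2, the larger and more abundant Xin gene, averaged 389 ± 7.90 and 400.3 ± 45.7 FPKM in day 3 control and follistatin libraries. Its controls held 383, 398 and 387 FPKM and its follistatin libraries 467, 374, 366 and 395 FPKM (log2 0.03, SE 0.09, adjusted p = 0.898 by limma). Its late controls held 317 and 297 (day 7) and 332 FPKM (day 14), against 153 and 225 (day 7) and 273 and 161 FPKM (day 14) in the follistatin libraries. All 4 follistatin values were below all controls, as for 21.5% of the genes tested, and the difference did not pass (315 ± 17.9 to 203 ± 56.7 FPKM, log2 -0.67, SE 0.21, adjusted p = 0.0907). It passed in 1 of 18 alternatives, the single fit over all 14 libraries (adjusted p = 0.0158).

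Csrp3, the muscle LIM protein gene, held 22.7, 22.1 and 29.6 FPKM in the day 3 controls and 28.5, 29.9, 36.3 and 41.8 FPKM in the day 3 follistatin libraries (log2 0.44, SE 0.15, adjusted p = 0.221 by limma). Later it lay on the other side. Controls held 29.8 and 13.8 (day 7) and 28.2 FPKM (day 14), and follistatin libraries 17.2 and 9.13 (day 7) and 7.29 and 4.27 FPKM (day 14). The groups overlapped through control day 7 replicate 2 and follistatin day 7 replicate 1, and the difference did not pass (23.9 ± 8.80 to 9.48 ± 5.54 FPKM, log2 -1.32, SE 0.42, adjusted p = 0.0979). It passed without follistatin day 7 replicate 1 (adjusted p = 0.0428) and in 1 fit over all 14 libraries (adjusted p = 0.0199), and it was -0.65 with the day 7 libraries alone (adjusted p = 0.483). Its relative Csrp2 (2.97 ± 0.490 and 2.50 ± 1.03 FPKM in late control and follistatin libraries) did not pass either (adjusted p = 0.556).

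Tnfrsf12a, the TWEAK receptor gene, held 7.54, 5.46 and 5.50 FPKM in the day 3 controls and 11.1, 13.0, 14.5 and 6.18 FPKM in the day 3 follistatin libraries. Follistatin day 3 replicate 4 lay within the controls, and the difference did not pass (log2 0.72, SE 0.25, adjusted p = 0.223 by limma). Without that library it did (log2 0.96, adjusted p = 0.0304). Late controls held 16.4 and 20.2 (day 7) and 8.33 FPKM (day 14), and late follistatin libraries 30.7 and 31.6 (day 7) and 33.0 and 33.0 FPKM (day 14). The 4 follistatin values lay close together and above all controls, as for 8.96% of genes. Tnfrsf12a rose from 15.0 ± 6.06 FPKM (n = 3) to 32.1 ± 1.13 FPKM (n = 4), a log2 difference of 1.13 (SE 0.25, adjusted p = 0.0457 by limma). The call ended without control day 7 replicate 1 (adjusted p = 0.149), without control day 14 replicate 1 (0.0601), without follistatin day 7 replicate 1 (0.059) or 2 (0.0696) and without follistatin day 14 replicate 1 (0.0851) or 2 (0.0799). It also ended without the filter on low values (0.078) and with the day 7 libraries alone (0.186). The log2 difference stayed between 0.74 and 1.37. Tnfsf12, the gene of its ligand TWEAK, did not pass, at 9.80 ± 1.42 and 6.69 ± 1.14 FPKM at day 3 (log2 -0.50, adjusted p = 0.161) and at 6.20 ± 0.854 and 6.97 ± 1.22 FPKM in the late set (log2 0.14, adjusted p = 0.531).

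**Figure D2:**
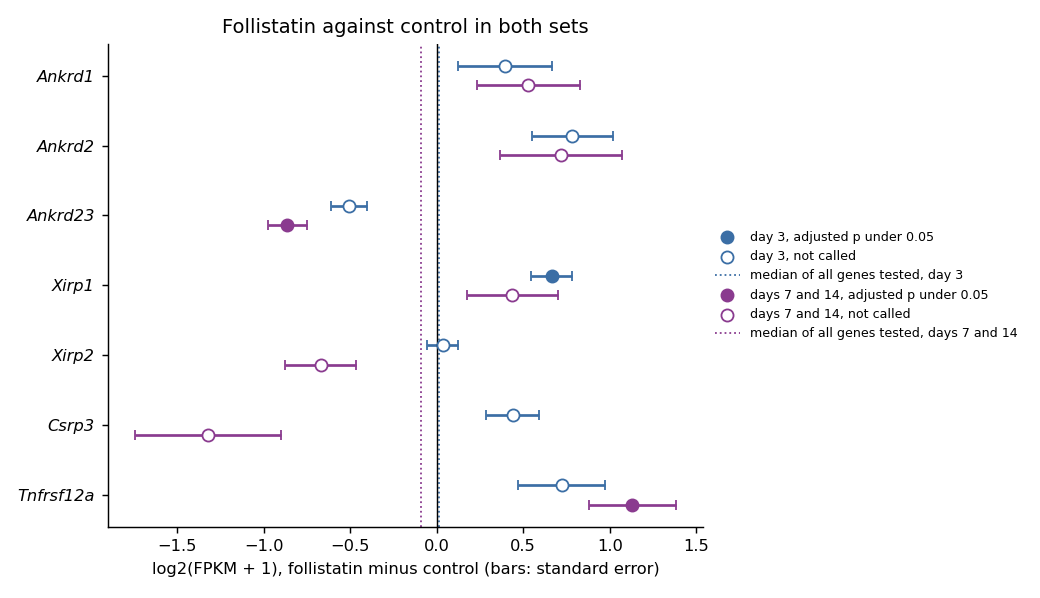
Log2 differences of follistatin minus control on the log2(FPKM + 1) scale for the 7 members at day 3 and at days 7 and 14 (points, with bars of 1 SE from limma, filled where the adjusted p was under 0.05, dotted lines the medians of all genes tested). Xirp1 at day 3 and Ankrd23 and Tnfrsf12a at days 7 and 14 passed, and Csrp3 lies at 0.44 at day 3 and at -1.32 at days 7 and 14.

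Other cell and fibre types were read from marker lists. The cardiomyocyte list summed to 40.7 to 122 FPKM in day 3 controls and 60.8 to 171 FPKM in day 3 follistatin libraries, and to 15.1 to 18.6 and 11.3 to 20.1 FPKM in the late set. Most of this was Tnnt2 and Myl4, which developing skeletal muscle also expresses, and Nppa (at most 0.486 FPKM) and Myh6 (at most 1.17 FPKM) were low in every library. None of the 3 testable genes of 10 was called in either set. The slow fibre list summed to 167 to 222 FPKM in day 3 controls and 192 to 335 FPKM in day 3 follistatin libraries, and to 114 to 162 and 123 to 169 FPKM in the late set. Only Casq2 of its 9 and 8 tested genes was called in each set, higher both times. In the late set Casq2 lay at 22.4 to 30.7 FPKM in controls and 54.2 to 87.1 FPKM in follistatin libraries. The late sums thus partly reflect Casq2. Of the 8 late genes 3 lay above 0, with a median log2 difference of -0.20, against 7 of 9 and 0.32 at day 3. The list of regenerating fibres and satellite cells summed to 98.6 to 229 FPKM in controls and 128 to 359 FPKM in follistatin libraries at day 3. In the late set it summed to 33.2 to 41.0 and 29.8 to 43.2 FPKM. None of its 11 and 8 tested genes was called. At day 3, 9 of the 11 lay above 0, with a median log2 difference of 0.45. An unadjusted p under 0.05 by limma was reached by 2 of them, against 15.2% of all genes tested. Within the late set the genes of this list differed among themselves. Myog lay at 1.11 to 2.25 FPKM in controls and 2.81 to 3.81 FPKM in follistatin libraries (log2 0.66, adjusted p = 0.066 by limma), Myod1 at 8.94 to 9.67 and 6.57 to 7.68 FPKM (log2 -0.33, adjusted p = 0.0723), and embryonic Myh3 at 1.07 to 1.93 and 0.806 to 1.77 FPKM. None of the 9 tested tendon and myotendinous junction genes was called in either set, with late sums of 114 to 162 FPKM in controls and 74.6 to 132 FPKM in follistatin libraries. The macrophage list had no call (late sums 48.0 to 128 and 76.6 to 240.1 FPKM), and 1 of 10 endothelial genes was called lower in the late set (sums 164 to 218 and 93.3 to 149 FPKM). None of 5 tested Schwann cell genes was called, although the late sums of all 8 listed did not overlap (43.6 to 96.5 FPKM in controls and 20.3 to 37.4 FPKM in follistatin libraries). In the late set 4 of these 5 had an unadjusted p under 0.05 by limma, none lay above 0 and their median log2 difference was -0.81. Of the 10 endothelial genes, 8 had an unadjusted p under 0.05 in the late set, 1 lay above 0 and the median was -0.54. Over all genes tested that share was 28.3%. The endothelial sums did not overlap at day 3 either (165 to 175 and 135 to 153 FPKM, none of 10 genes called). Of 9 tested smooth muscle and pericyte genes none was called in either set, but 7 had an unadjusted p under 0.05 in the late set, 1 lay above 0 and the median log2 difference was -0.81. The sum of this list (1001 to 1077 FPKM in late controls and 939.7 to 1382 FPKM in late follistatin libraries) was mostly Des, which muscle fibres express. Fibroblast genes had no call, with late sums of 514 to 899 and 484 to 787 FPKM. Neutrophil genes had none either, and summed to 2.24 to 3.84 FPKM in day 3 controls and 3.86 to 19.3 FPKM in day 3 follistatin libraries. The part of these cells in the members' differences was not tested.

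The difference between the late and the day 3 effects was tested by an interaction term in a model of all 14 libraries, and none of the 7 members passed, against 0.0884% of 11306 genes. At an unadjusted p under 0.05 there were 3 members, against 14.8% of all genes, and the median over all genes was -0.11, or 0.00 after rescaling by the median ratio. Csrp3 had the greatest value, a late effect lower than the day 3 effect by 1.76 on the log2 scale (log2 -1.76, SE 0.49, unadjusted p = 0.00317 and adjusted p = 0.186 by limma). Xirp2 followed with -0.71 (SE 0.24, adjusted p = 0.236) and Ankrd23 with -0.36 (SE 0.15, adjusted p = 0.307). For Ankrd1 (0.14) and Ankrd2 (-0.06) the sign depended on which libraries were used.

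Within the late follistatin libraries, day 14 was set against day 7 with 2 libraries each. No member passed, against 0.127% of all genes, and 2 members had an unadjusted p under 0.05 against 8.59%. Ankrd1 stood at 17.5 ± 4.03 FPKM at day 7 and 33.5 ± 1.93 FPKM at day 14 (log2 0.91, SE 0.19, adjusted p = 0.483 by limma). Ankrd2 stood at 85.2 ± 36.5 and 41.0 ± 6.53 FPKM (log2 -0.98, adjusted p = 0.565), and Csrp3 at 13.2 ± 5.73 and 5.78 ± 2.13 FPKM (log2 -1.04, adjusted p = 0.603). Ankrd23 and Tnfrsf12a had log2 differences of 0.02 and 0.08 between these days.

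Ratios between members within a library do not depend on its scaling, and are given as a description without a test. The pairs were picked among the members. How often other pairs of genes separate the treatments in this way was not computed. Ankrd23 made up 94.2% to 96.5% of the summed FPKM of the 3 ankyrin repeat genes in the 6 control libraries and 84.1% to 90.5% in the 8 follistatin libraries. Ankrd23 was 29.3 to 45.4 times as abundant as Ankrd2 in the controls and 6.00 to 17.3 times in the follistatin libraries. Xirp2 was 20.4 to 24.1 times as abundant as Xirp1 in day 3 controls and 11.7 to 16.8 times in day 3 follistatin libraries. In the late set these Xin ratios were 9.01 to 11.6 in controls and 3.61 to 6.56 in follistatin libraries, so both treatments lay lower at the later days. Ankrd2 was 1.28 to 1.70 times as abundant as Csrp3 in day 3 controls and 1.50 to 2.11 times in day 3 follistatin libraries. At days 7 and 14 this ratio lay between 1.26 and 2.00 in controls and between 6.26 and 8.52 in all 4 follistatin libraries. The latter was a narrower band than either gene alone. Neither Ankrd2 (adjusted p = 0.218) nor Csrp3 (adjusted p = 0.0979) passed in the late set by limma.

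**Figure D3:**
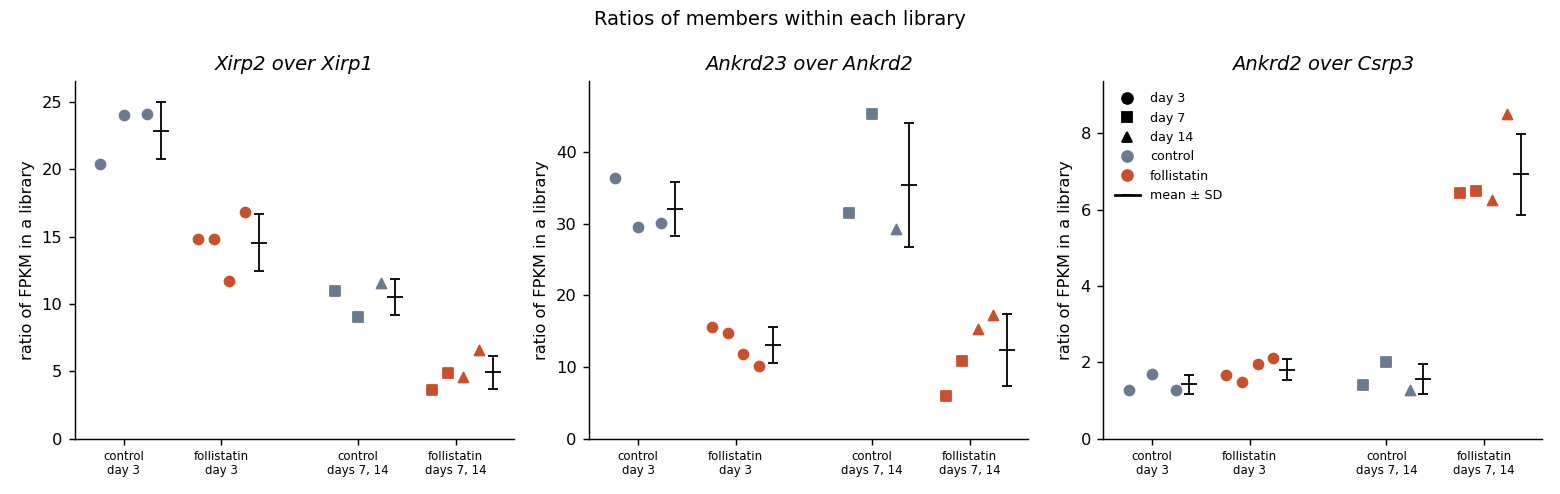
Ratios of FPKM between pairs of members within each library (linear vertical axes from 0, 1 point a library, point shape by day, black bar the group mean ± SD). The ratio of Ankrd2 to Csrp3 lies between 1.26 and 2.11 in all libraries but the late follistatin ones, which lie at 6.26 to 8.52. The pairs were picked, and no share over other gene pairs was computed.

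Over the 14 libraries, levels on the log2(FPKM + 1) scale were correlated between members as a description, since libraries share treatment, day and depth. Tnfrsf12a correlated with Xirp1 at a Pearson r of 0.81 and with Xirp2 and Csrp3 at -0.81 and -0.76, and Xirp2 correlated with Csrp3 at 0.74. After the group means were taken out (13 libraries), these values were 0.31, -0.09, -0.39 and 0.007. Within groups Ankrd2 correlated with Csrp3 at 0.85 and with Ankrd23 at 0.82, and Xirp1 with Xirp2 at 0.75. These were the highest within-group values among the pairs of members. A library high in either gene of such a pair for its group thus tended to be high in the other. In a group of 2 libraries the deviations mirror each other, so the 13 libraries are not 13 independent values. Over all 14 libraries the same pairs stood at 0.20, -0.49 and -0.48. Tnfrsf12a correlated within groups with Ankrd2 at -0.56 and with Ankrd23 at -0.56. The genes most like each member over the 14 libraries, among 10432 genes, were Rab3gap2 (r = 0.878), Pfdn4 and Dck for Ankrd1, Armc6 (0.870), Ung and Phykpl for Ankrd2, and Camk2b (0.941), Tbc1d1 and Ulk1 for Ankrd23. For Xirp1 they were Myh10 (0.917), Slc9a2 and Ccnd1, and for Xirp2 Cep350 (0.986), Ppp1r3a and Kdm5a. Csrp3 was most like Zfp523 (0.965), Dnajb5 and Slc20a2, and Tnfrsf12a most like Hspb1 (0.926), Msantd3 and Tma16.

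Genes that work with the members were read from 7 lists, which were also chosen with earlier results of these data known. Of all genes tested, 1.49% were called at day 3 and 5.5% in the late set. Given how the lists were chosen, these shares do not test a list. Of the titin I-band and Z-disc partners, the neighbours of the ankyrin repeat proteins and Csrp3, 3 of 29 tested rose and 1 fell at day 3 (13.8% called, median log2 difference 0.08). The actin-binding Z-disc genes Palld (21.5 ± 1.73 to 35.1 ± 4.12 FPKM), Synpo2l (48.4 ± 3.21 to 64.3 ± 2.04 FPKM) and Pdlim3 (188 ± 2.92 to 268 ± 28.0 FPKM) rose, and the muscle ubiquitin ligase gene Trim63 (133 ± 6.13 to 93.3 ± 5.35 FPKM) fell. Of 26 tested in the late set, 2 rose and 2 fell (15.4% called, median -0.05). Cmya5 (myospryn) fell from 306 ± 30.1 to 134 ± 29.6 FPKM and the titin-bound protease gene Capn3 from 74.5 ± 1.33 to 44.95 ± 5.48 FPKM. Smpx, a small stretch-responsive protein gene, rose from 246 ± 14.7 to 495 ± 101 FPKM and Pdlim7 from 167 ± 16.5 to 272 ± 48.0 FPKM. Pdlim3 and Pdlim7, and Flnc, Ctgf and Trim72 named later, were added after their values were seen.

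Of 15 tested Xin partners and actin regulators, only Lmod2, a leiomodin that nucleates actin filaments, was called at day 3 (70.9 ± 6.37 to 36.95 ± 5.03 FPKM, log2 -0.93, adjusted p = 0.011 by limma). Later Lmod2 fell from 50.3 ± 7.96 to 15.7 ± 2.81 FPKM (log2 -1.62, adjusted p = 0.00576), the actin-binding Nexn fell from 229 ± 27.8 to 138 ± 12.2 FPKM and the actin-disassembly gene Wdr1 rose from 20.5 ± 2.41 to 32.6 ± 2.33 FPKM. Filamin C (Flnc), a direct partner of Xin, did not pass in either set by limma (log2 0.35, adjusted p = 0.242, and log2 0.44, adjusted p = 0.137). The calls of this list made 6.67% of its tested genes at day 3 and 20% in the late set. Of 22 costamere and integrin genes, Itgb1bp2 (melusin), which binds the integrin beta 1 tail, rose in both sets. It went from 124 ± 7.96 to 208 ± 7.54 FPKM at day 3 (log2 0.74, adjusted p = 0.00232) and from 134 ± 18.3 to 328 ± 34.7 FPKM in the late set (log2 1.29, adjusted p = 0.00576). The adaptor gene Pxn (paxillin) fell in the late set, from 18.8 ± 0.290 to 13.0 ± 1.12 FPKM (adjusted p = 0.0317). The 22 genes had a median of 0.08 at day 3 and -0.23 in the late set, with 4.55% and 13.6% called.

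Of the TWEAK, Fn14 and NF-kB genes, none of 21 was called at day 3 by limma (3 at an unadjusted p under 0.05, median -0.03). Of the 20 tested in the late set, 1 was called (5%), near the 5.5% of all genes tested. This was Traf5, an adaptor of the receptor family, which rose from 1.51 ± 0.477 to 3.30 ± 0.294 FPKM (adjusted p = 0.0309), and the list's median was 0.00. Nfkb1 (log2 -0.36, adjusted p = 0.0658) and Birc2 (log2 -0.36, adjusted p = 0.0921) did not pass.

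Of 21 Yap, Taz and Tead genes, the factors that bind M-CAT elements and their targets, 1 fell at day 3 (4.76%, median 0.02). In the late set 2 fell (9.52%, median -0.34). Over all genes tested these shares were 1.49% and 5.5%. Tead1 fell at day 3 from 36.6 ± 3.48 to 23.9 ± 3.09 FPKM (log2 -0.60, adjusted p = 0.0497 by limma) and from 39.8 ± 4.10 to 14.8 ± 3.05 FPKM in the late set (log2 -1.38, adjusted p = 0.00864). Cyr61, a matricellular gene used as a Yap target, fell in the late set from 12.9 ± 3.34 to 5.45 ± 1.39 FPKM (adjusted p = 0.0331), and its neighbour in that role, Ctgf, did not pass (6.83 ± 1.39 and 6.07 ± 3.07 FPKM, adjusted p = 0.625). Of 21 tested Srf, Mrtf and immediate early genes, 1 was called at day 3 (4.76%) and 2 in the late set (9.52%). Abra (STARS), an actin-binding activator of Srf signalling, rose at day 3 from 61.6 ± 19.1 to 132 ± 20.3 FPKM (adjusted p = 0.0299 by limma). The actin-binding LIM genes Ablim1 (9.33 ± 1.22 to 4.83 ± 1.00 FPKM) and Ablim3 (9.55 ± 1.34 to 5.12 ± 1.18 FPKM) fell in the late set, and the immediate early gene Jun did not pass (log2 -1.03, adjusted p = 0.0593).

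Of 19 tested stretch growth factors and damage sensors, 2 rose and 1 fell at day 3 (15.8% called, median 0.07). In the late set 2 of 18 rose and 2 fell (22.2% called, median 0.38). Over all genes tested, 1.49% and 5.5% were called. Nos1, the neuronal nitric oxide synthase of the sarcolemma, fell at day 3 from 25.8 ± 1.54 to 12.2 ± 1.17 FPKM (adjusted p = 0.00232 by limma) and from 18.6 ± 3.32 to 5.03 ± 1.93 FPKM in the late set (adjusted p = 0.0156). The muscle growth factor gene Fgf6 (2.04 ± 0.236 to 7.51 ± 2.26 FPKM) and the caveolin gene Cav3 (42.8 ± 1.44 to 59.4 ± 5.89 FPKM) rose at day 3. Of the late calls, the membrane repair genes Dysf (17.0 ± 0.990 to 24.0 ± 1.99 FPKM) and Trim72 (67.0 ± 5.16 to 101 ± 12.6 FPKM) rose, and Ahnak, which binds dysferlin, fell (26.9 ± 3.32 to 16.1 ± 1.20 FPKM).

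**Figure D4:**
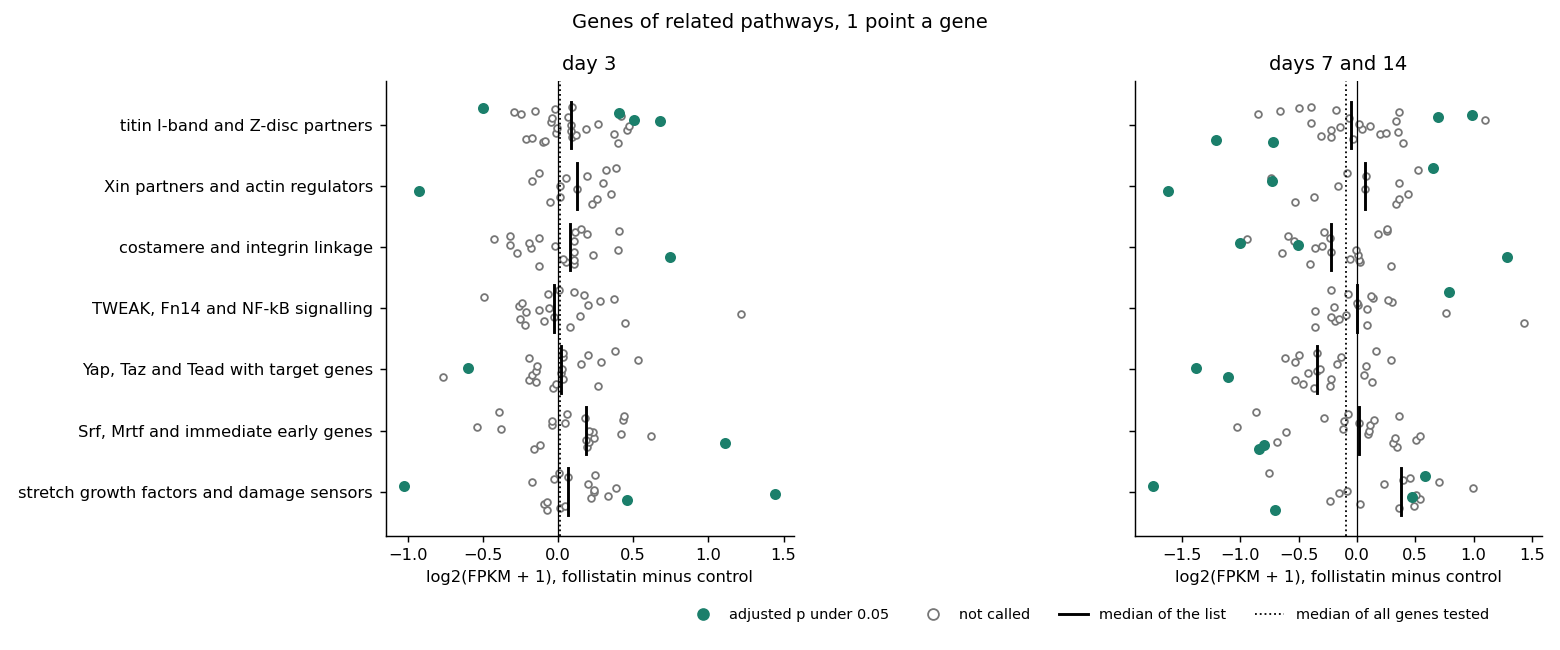
Log2 differences of follistatin minus control for the genes of the 7 lists (1 point a gene, filled where the adjusted p was under 0.05, short bar the list's median, dotted line the median of all genes tested). The medians of the lists lie between -0.34 and 0.38, and on 4 of the lists genes were called in opposite directions in the same set.

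Many of these calls ended when 1 library was left out, with fewer samples in the fit, while the log2 differences of the called list genes stayed at 0.79 to 1.21 times their full values. Of the 11 list genes called at day 3, 2 (Itgb1bp2 and Nos1) kept their call whichever library was left out, and of the 19 late ones 2 (Lmod2 and Itgb1bp2) did. At day 3, leaving out control replicate 1, 2 or 3 ended 9, 7 and 5 of the 11 calls, and leaving out follistatin replicate 1, 2, 3 or 4 ended 5, 5, 7 and 2 (adjusted p from 0.0563 to 0.183). Of the late libraries, leaving out control day 7 replicate 1 or 2 or control day 14 replicate 1 ended 17, 14 and 16 of the 19 calls (adjusted p from 0.0529 to 0.202). Leaving out follistatin day 7 replicate 2 ended 7, follistatin day 14 replicate 1 ended 10 and follistatin day 14 replicate 2 ended 4, follistatin day 7 replicate 1 ended none, and the day 7 libraries alone kept none (adjusted p from 0.0774 to 0.306). Without the filter on low values, 4 of the day 3 and 9 of the late calls ended. Tead1 at day 3 lost its call without any 1 of the 7 libraries.

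The authors' deposited table, made with Cuffdiff from the reads, called more members than limma did on FPKM. At day 3 the authors' deposited table gave q = 0.00191 for Ankrd2 (log2 0.83), Ankrd23 (log2 -0.53) and Xirp1 (log2 0.67), and no call for the other 4. For the late set the authors' deposited table called Ankrd2 (log2 0.85), Ankrd23 (log2 -0.88) and Csrp3 (log2 -1.35) at q = 0.000894 each. It also called Ankrd1 (log2 0.60, q = 0.015), Xirp1 (log2 0.51, q = 0.0308) and Xirp2 (log2 -0.65, q = 0.0137) in the authors' deposited table. Tnfrsf12a, which limma called in the late set, had log2 1.10 and q = 0.114 in the authors' deposited table.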

How the data were processed

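RNA sequencing libraries (Illumina TruSeq kit, per the labels) of 14 tibialis anterior muscles were used. Per the submitters' processing notes, the authors used TopHat and Cuffdiff with the build mm10. Versions, annotation, counting mode and strand setting are not given in the sources used here. Each library's deposited file lists FPKM by gene. A pair of deposited tables holds the authors' Cuffdiff comparisons, with log2 fold changes, test scores, p-values and q-values.

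Of 24386 genes listed, 27 whose symbols had become dates were left out. Genes that the authors marked HIDATA (not estimated, 4 at day 3 and 31 in the late set) were not tested. Follistatin was set against control in each set separately by limma 3.58.1 (R 4.3.3, lmFit and trended eBayes). The values were log2(FPKM + 1) of genes that averaged 1 FPKM or more over the set's libraries. The pseudocount of 1 understates changes of low genes. Tests were two-sided, with Benjamini-Hochberg adjustment over all genes tested, and all 7 members passed the filter. The joint model for the difference between the sets and the day 14 against day 7 contrast used the same settings.

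Depth was read from low FPKM (below 0.5), whose values for a gene in a pair of libraries differ by ratios of whole read numbers up to 6 (tolerance 0.02 on the log2 scale). Such ratios held for 79.2% to 83.8% of values in day 3 libraries and 51.6% to 62.6% in late ones. Replicates correlated across genes at r of 0.930 to 0.952, and no pair of libraries was identical.

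The members and lists were chosen with earlier results of these data known. Named genes are the 7 members, Fst, the 3 genes with the smallest p of each pathway list in each set, and the 3 genes most like each member by Pearson r. One gene that this rule takes is not reported here by name. Others are marked as added after their values were seen or are named as list markers or relatives.

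Alternatives were other pseudocounts, filters and scalings, robust eBayes, a replicate block, 1 fit over all libraries, day 7 alone, day as a covariate and each library left out. The omission of small RNA genes was chosen after seeing the data. In data simulated with independent normal noise, the pipeline recovered 83.9% of 93 genes changed by 1 on the log2 scale at day 3 (11066 genes run). It recovered 69.8% of 96 such genes in the late set (10784 genes run), and 98.9% of those changed by 2 in each. The simulation added no outlying library and no difference of depth, so these shares may overstate recovery in the real libraries.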

Additional observations from a re-analysis of the deposited data

How the results depend on the processing

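The number of members called at day 3 (1) became 2 with a pseudocount of 0.1, a mean of at least 5 FPKM, robust eBayes or small RNA genes left out. It became 0 with no filter on low values, with quantile normalization or with a replicate block, and was 0 to 3 with 1 library left out. In the late set the 2 members became 4 with all 14 libraries in 1 fit, 1 with no filter, 0 with the replicate block or day 7 alone, and 0 to 2 with 1 library left out. Over all genes, the 168 calls of day 3 became 19 with the replicate block, 266 without small RNA genes and 39 to 165 with 1 library left out. The 608 late calls became 284 with no filter, 164 with the replicate block, 2071 with all libraries in 1 fit, 30 with day 7 alone, 963 without small RNA genes and 43 to 907 with 1 library left out. The 10 calls for the difference between the sets became 2 with no filter, 6 with rescaling by the median ratio and 2 to 32 with 1 library left out, and the 14 calls of day 14 against day 7 became 11 to 58. No member was called in these last 2 comparisons under any alternative run. The left-out and day 7 fits had fewer samples, and the cause of these changes was not tested.

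Same-numbered control and follistatin libraries did not deviate together (r of -0.05, -0.06 and -0.03 at day 3 and 0.02 at day 7). With so few libraries these values cannot decide whether the libraries were paired, and those of day 7 can differ in sign only. Under the replicate block the late Ankrd23 difference was -0.84 (adjusted p = 0.0574 by limma). The replicate block also ended all 11 calls of list genes at day 3 (adjusted p from 0.0605 to 0.216) and 13 of the 19 late ones (0.0507 to 0.105).

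Signs turned as follows. Ankrd1 in the late set was -0.092 with day 7 alone. The difference between the sets became -0.49 for Ankrd1 and 0.44 for Ankrd2 with day 14 left out, and 0.070 for Ankrd2 with rescaling by the median ratio. With 1 library left out it ranged from -0.157 to 0.363 for Ankrd1, from -0.375 to 0.152 for Ankrd2 and from -0.400 to 0.0142 for Xirp1. The day 3 value of Xirp2 ranged from -0.0416 (without follistatin day 3 replicate 1) to 0.0749. For day 14 against day 7, the ranges were -0.203 to 0.556 for Xirp2, -0.0554 to 0.0934 for Ankrd23 and -0.826 to 0.417 for Xirp1, each with a change of sign. The unknown depth of the late libraries limits the precision of low values.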
